A study of Mus musculus with 2 samples.

Results

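The narrowest H3K27me3 peaks of mouse sciatic nerve that lie at protein-coding genes are described here. H3K27me3 is the trimethylated form of lysine 27 of histone H3, and ChIP-seq, the sequencing of DNA pulled down with an antibody to it, was done on sciatic nerve. The mice were C57/BL6 males, 8 weeks of age. There was 1 ChIP library and 1 input library, with no treatment or genotype compared. Only the deposited ChIP peak list was analysed. The peaks were selected on their width and place: each spans exactly 500 bp and reaches, with 1 base or more, to within 2 kb of either annotated end of a RefSeq protein-coding gene, inside or outside it. This gave 621 peaks, out of 2505 peaks of 500 bp and 6018 peaks of any width.

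Because width and place chose the peaks, their width and their nearness to genes are descriptions and were not tested. With 1 library and no replicates, no p-values were computed, and intervals (exact, 95%) cover counting error only. Neighbouring peaks are not independent, which the intervals leave out. Scores were multiples of 2.5734 and are given as reads, the score divided by that step. How many animals the library pooled is not stated in the labels. The nerve holds several cell types, and a mark in fewer cells cannot be told apart from a weaker mark in each cell. A peak list of a histone mark gives no expression values, so the tissue could not be checked against expressed marker genes.

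H3K27me3 is written by Polycomb repressive complex 2, whose catalytic subunit is EZH2 or EZH1, and is bound by Polycomb repressive complex 1. In mammals the complex is recruited mainly to CpG-rich promoters of genes that are not transcribed, and at developmental regulators it spreads into broad domains. In the adult nerve, Schwann cells keep many lineage regulators of other tissues silent, and loss of the mark is known to release genes of the injury response.

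Promoter sequences show what kind of DNA the short peaks covered. Each sequence below runs 5′ to 3′ from 250 bases before to 50 bases after a transcript start listed by RefSeq (GRCm38.p6, the build of mm10). Such a start can lie inside the gene, as it does for Samd11, Igfbp2 and Six4. Capitals mark every CG dinucleotide. The first 3 lie wholly inside a 500 bp peak and were taken by the rule for named genes. They belong to Samd11, which encodes a sterile alpha motif protein, Igfbp2, an insulin-like growth factor binding protein, and Six4, a homeobox factor. The other 5 lie partly inside one and were chosen after their values were seen, to span the range of CG counts. They belong to Lep, the adipocyte hormone leptin, Cnn1, the smooth muscle protein calponin, Gdf10, a growth factor of the transforming growth factor beta superfamily, Scn9a, a voltage-gated sodium channel of sensory neurons, and Slc17a6, a vesicular glutamate transporter.
Samd11 (chr4:156255293-156255592, minus strand): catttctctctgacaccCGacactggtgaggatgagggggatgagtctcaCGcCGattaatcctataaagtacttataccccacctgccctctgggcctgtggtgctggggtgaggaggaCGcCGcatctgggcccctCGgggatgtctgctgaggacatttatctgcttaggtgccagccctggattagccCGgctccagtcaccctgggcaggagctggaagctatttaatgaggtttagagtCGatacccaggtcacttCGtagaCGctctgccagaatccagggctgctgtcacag
Igfbp2 (chr1:72825137-72825436, plus strand): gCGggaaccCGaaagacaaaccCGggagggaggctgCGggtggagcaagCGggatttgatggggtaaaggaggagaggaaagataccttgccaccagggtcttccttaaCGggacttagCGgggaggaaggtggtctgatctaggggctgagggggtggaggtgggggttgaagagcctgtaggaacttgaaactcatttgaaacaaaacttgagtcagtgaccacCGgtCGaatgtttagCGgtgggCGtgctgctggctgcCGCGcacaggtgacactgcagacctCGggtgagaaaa
Six4 (chr12:73113196-73113495, minus strand): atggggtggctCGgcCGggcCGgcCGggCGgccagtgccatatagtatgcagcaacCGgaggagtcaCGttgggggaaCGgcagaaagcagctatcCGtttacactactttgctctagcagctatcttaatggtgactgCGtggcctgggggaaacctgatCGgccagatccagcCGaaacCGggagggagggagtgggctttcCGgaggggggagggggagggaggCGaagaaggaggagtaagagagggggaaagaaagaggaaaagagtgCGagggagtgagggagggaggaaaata
Lep (chr6:29059971-29060270, plus strand): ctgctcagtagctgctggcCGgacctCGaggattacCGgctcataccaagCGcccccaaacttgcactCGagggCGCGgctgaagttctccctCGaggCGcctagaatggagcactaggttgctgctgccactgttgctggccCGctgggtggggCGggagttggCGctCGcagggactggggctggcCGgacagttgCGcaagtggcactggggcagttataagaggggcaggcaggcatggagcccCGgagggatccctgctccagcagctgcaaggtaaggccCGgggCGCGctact
Cnn1 (chr9:22099003-22099302, plus strand): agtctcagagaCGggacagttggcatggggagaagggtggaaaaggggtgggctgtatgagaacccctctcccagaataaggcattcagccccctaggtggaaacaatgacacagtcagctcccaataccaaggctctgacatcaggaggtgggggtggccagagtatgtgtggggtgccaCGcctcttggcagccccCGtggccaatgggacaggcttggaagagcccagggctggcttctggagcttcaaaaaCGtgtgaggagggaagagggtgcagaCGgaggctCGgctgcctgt
Gdf10 (chr14:33923337-33923636, plus strand): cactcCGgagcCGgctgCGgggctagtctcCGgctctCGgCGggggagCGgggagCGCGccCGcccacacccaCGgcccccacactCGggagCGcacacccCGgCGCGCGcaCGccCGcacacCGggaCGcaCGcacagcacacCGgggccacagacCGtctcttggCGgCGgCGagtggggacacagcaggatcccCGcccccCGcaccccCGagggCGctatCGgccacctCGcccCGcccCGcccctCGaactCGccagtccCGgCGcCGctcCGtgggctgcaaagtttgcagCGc
Scn9a (chr2:66634913-66635212, minus strand): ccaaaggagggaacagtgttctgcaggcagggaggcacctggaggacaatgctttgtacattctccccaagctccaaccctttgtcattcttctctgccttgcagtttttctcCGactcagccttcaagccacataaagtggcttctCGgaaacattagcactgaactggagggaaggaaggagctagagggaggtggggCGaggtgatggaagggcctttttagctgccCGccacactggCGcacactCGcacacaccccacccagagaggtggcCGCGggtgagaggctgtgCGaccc
Slc17a6 (chr7:51621580-51621879, plus strand): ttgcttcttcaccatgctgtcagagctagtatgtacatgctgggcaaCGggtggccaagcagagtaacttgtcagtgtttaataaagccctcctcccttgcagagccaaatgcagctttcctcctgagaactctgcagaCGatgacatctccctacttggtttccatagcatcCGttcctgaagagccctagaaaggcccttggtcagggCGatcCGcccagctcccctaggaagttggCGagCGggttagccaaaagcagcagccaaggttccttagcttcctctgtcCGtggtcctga

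These promoters differed widely in CG content although the peaks over them held similar reads. The Gdf10 promoter had 42 CG dinucleotides and 77.3% G+C, and the Cnn1 promoter had 6 and 59.3%. Both peaks held 11 reads. Between them stood Lep with 19 CG dinucleotides, Six4 with 16, Igfbp2 with 14, Samd11 with 10, Scn9a with 9 and Slc17a6 with 8. The peaks over these 6 promoters held 10 to 15 reads.

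Promoters at least 50% inside a 500 bp peak at a gene end had a higher median CpG content than promoters in no peak. There were 84 such promoters at 81 genes. Their median ratio of observed to expected CpG was 0.658 (quartiles 0.466 and 0.782), against 0.695 (0.513 and 0.823) for 708 promoters in wider peaks and 0.555 (0.217 and 0.828) for 20323 in no peak. A ratio of at least 0.6 was found in 58.3% of promoters in 500 bp peaks (47.06 to 69), 64.1% in wider peaks (60.47 to 67.66) and 47.1% in no peak (46.37 to 47.74). The interval for short peaks overlaps both that for wider peaks and that for promoters in no peak. The lower quartiles of both kinds of peak are more than 2 times that of promoters in no peak, while their upper quartiles lie below its upper quartile.

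**Figure D1:**
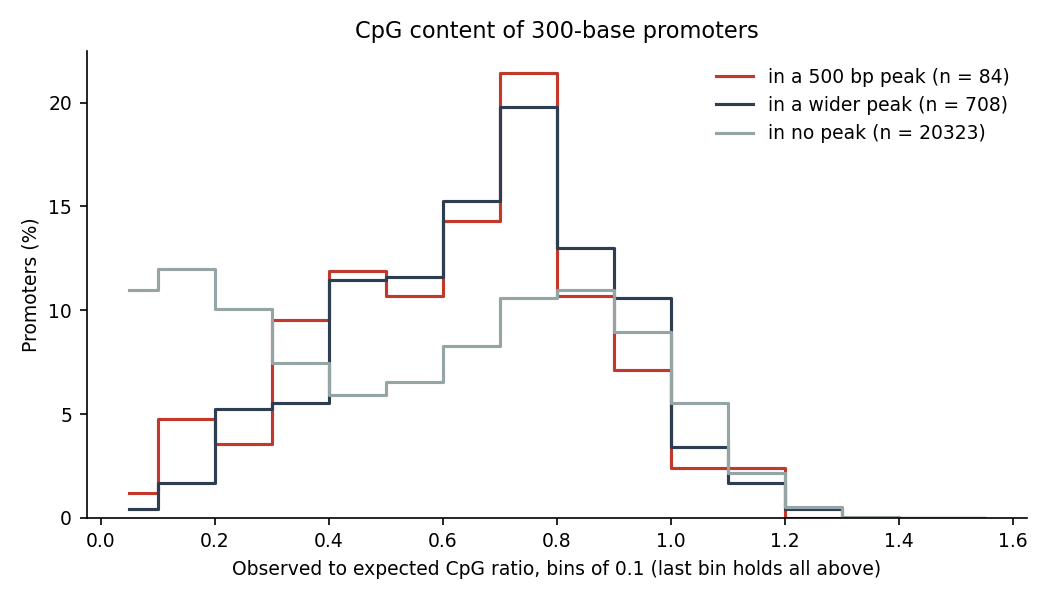
Distribution of the observed to expected CpG ratio (x axis, bins of 0.1) as a percentage of promoters (y axis), for promoters at least 50% inside a 500 bp peak at a gene end, in a wider peak, or in no peak. Promoters in no peak spread over low and high ratios, while those in 500 bp peaks (median 0.658) and wider peaks (median 0.695) lie mostly above 0.4.

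Short words were searched on both strands of each 300-base promoter. The word CGCG stood in 71.4% of promoters in 500 bp peaks (60.53 to 80.76), in 72.7% in wider peaks and in 49.2% of all 21263 promoters. The word GGGCGG, which can overlap CGCG, stood in 69.0% (58.02 to 78.69), 64.1% and 46.2%. The word TATAAA stood in 4.76% (1.313 to 11.75), 9.04% and 12.6%. The word CCAAT stood in 29.8% (20.27 to 40.73), 33.1% and 38.2%. The E-box word CACGTG stood in 3.57% (0.7427 to 10.08), 7.35% and 7.84%. For TATAAA the interval of promoters in 500 bp peaks lies below the share of all promoters, and for CCAAT and CACGTG it includes that share.

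The peaks held few reads each. Of the 621 peaks, 341 (54.9%) held 10 reads, the lowest number in the list, and 146 held 11. A further 124 held 12 to 14 reads, and 10 held 15 or more. The median was 10 (quartiles 10 and 11) and the highest 24. A peak of 10 reads has a Poisson interval of 4.795 to 18.39 reads, so the differences among nearly all of these peaks are within counting error. The list starts at 10 reads, so the spread of these peaks is cut at that floor and is not measured by this interval. Together the 621 peaks held 6739 reads, 3.64% of the reads in all peaks, over 4.08% of the covered bases.

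Peaks of 500 bp away from gene ends had nearly the same reads. Their median was also 10, over 1884 peaks. Of them, 14.3% held at least 12 reads (12.73 to 15.94), against 21.6% (18.4 to 25.03) of those at gene ends. Those intervals do not overlap, but cover counting error only. The highest values were away from gene ends, where 3 peaks held 181, 160 and 87 reads (chr2:98664868-98665367, chr6:103648962-103649461 and chr12:3109763-3110262). The input has no values in the peak list, so whether it was also high at these 3 places could not be checked. They cannot be taken as the strongest mark among 500 bp peaks. No 500 bp peak at a gene end came near these values. Apart from those 3, the highest away from gene ends held 27 reads, against 24 at gene ends. In reads per kb, 500 bp peaks at gene ends had a median of 20, against 22.1 for wider peaks at gene ends.

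**Figure D2:**
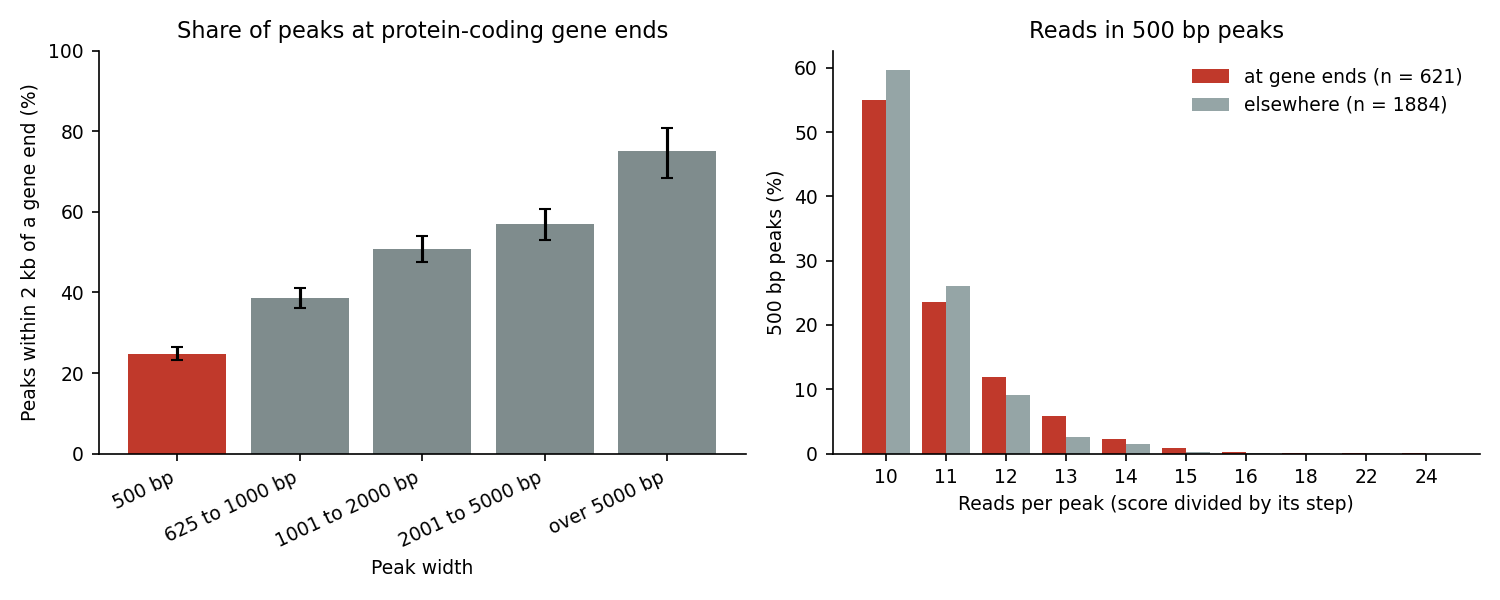
Left, share of peaks within 2 kb of a protein-coding gene end (y axis, %) by peak width, with exact 95% intervals. It was 24.8% for 500 bp peaks and 75% for peaks over 5000 bp. Right, percentage of 500 bp peaks (y axis) by reads per peak (x axis), at gene ends and elsewhere, where the few peaks elsewhere above 24 reads and those with numbers of reads not seen at gene ends are not drawn. Both groups fall off from 10 reads.

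A smaller share of 500 bp peaks than of wider ones lay at gene ends: 24.8% (23.11 to 26.53) against 47.7% (46.07 to 49.4) of 3513 wider peaks. Width and place are what chose the peaks, and a wider peak reaches a window more easily, so this order is partly fixed by construction. In the class of 625 to 1000 bp it was 38.6%, and it was higher in each wider class. No peak in the list had a width between 500 and 625 bp. The 38 peaks of 625 bp held a median of 13 reads and 10 to 456 reads. At the limit of place, the outermost members ended 2000 bp (Cbx8, a subunit of Polycomb repressive complex 1), 1997 bp (Minar1) and 1992 bp (Fcgr3, an Fc receptor of immune cells) from a gene end. The nearest 500 bp peaks outside lay 2009 bp from Dmrt3, 2013 bp from Tff3 and 2031 bp from Mpzl2. Reads were 10, 10 and 24 inside and 10, 10 and 11 outside.

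Short peaks sat at gene starts more often than at gene ends proper. The strand was known for the genes of 444 peaks. Of these, 318 lay in the window of a 5′ end alone (71.6%, 67.18 to 75.77), 95 in that of a 3′ end alone (21.4%) and 31 in both kinds of window. Peaks of 625 to 1000 bp had nearly the same 5′ share, 73.5% (69.05 to 77.54). Only 20.5% of the pairs of a short peak and a 5′ end had the peak covering the end (75 of 366), against 52.9% for wider peaks, which cover more bases. The centre lay upstream of the gene in 32.5% of those pairs (27.74 to 37.58) and inside it in the others.

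Within the 5′ window, the peaks gathered over the start and the first kilobase of the gene. There were 75 centres within 250 bp of the 5′ end, 77 between 250 and 750 bp into the gene and 62 between 750 and 1250 bp. Each of the other bins of that size, upstream or farther in, held 21 to 31. At the 3′ end the bins held 6 to 22, and the lowest was the bin over the end itself.

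**Figure D3:**
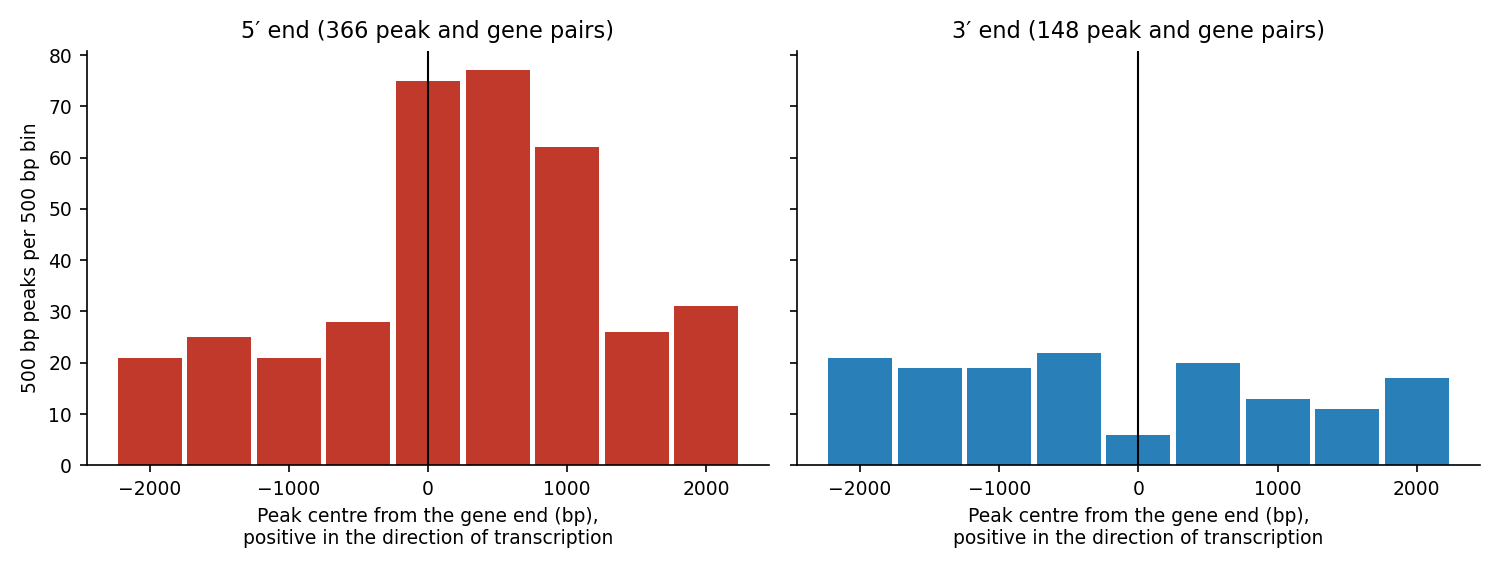
Number of 500 bp peaks (y axis) by distance of the peak centre from the gene end (x axis, bp, positive in the direction of transcription), for 366 pairs at 5′ ends and 148 at 3′ ends of genes with known strand. The 3 bins from the 5′ end to 1250 bp inside hold 62 to 77 peaks each, and all bins at 3′ ends hold 22 or fewer.

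More than 50% of the short peaks stood apart from all others. Of 621, 357 had no other peak of any width within 5 kb (57.5%, 53.49 to 61.41). The share was 57.7% for 500 bp peaks elsewhere and 43.9% (41.5 to 46.3) for wider peaks at gene ends. The likeness to 500 bp peaks elsewhere at 5 kb was not kept at the other 2 distances. Within 2 kb, 65.1% (61.16 to 68.81) at gene ends and 72.4% (70.32 to 74.41) elsewhere had no other peak, and within 20 kb the order turned, with 47.0% (43.04 to 51.03) and 39.7% (37.48 to 41.95). Peaks with none within 5 kb held 10.8 ± 1.04 reads (SD over 357 peaks) and at most 14, and those with a neighbour 10.9 ± 1.69 (264 peaks) and at most 24. Of peaks that stood apart, 78.3% (72.66 to 83.18) lay at a 5′ end alone, against 62.8% (55.55 to 69.69) of those with a neighbour. These intervals do not overlap, but they treat peaks as independent, which neighbouring peaks are not. The difference was not tested. Where there was a neighbour, it was 500 bp wide at 82 peaks, 625 to 2000 bp at 145, 2001 to 5000 bp at 25 and wider at 12. The smallest distance to another peak was 501 bp.

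The 621 peaks lay within 2 kb of an end of 623 protein-coding genes, 2.85% of 21887. For 429 of them, 1.96% of all protein-coding genes, 500 bp peaks were the only peaks at either end, and 194 also had a wider one. Wider peaks lay at 6.62% of genes. Of the 623 genes, 578 had 1 short peak, 41 had 2 and 4 had 3, and 51 peaks lay within that distance of 2 genes each. Genes with short peaks only had a median length of 28.1 kb (quartiles 10.4 and 95.9), against 10.9 kb (5.28 and 39) for genes with both kinds, 20.8 kb (6.72 and 74.5) for the 1256 genes with wider peaks alone and 16.9 kb for genes with no peak.

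Of 47 developmental transcription factor genes with a short peak, 42 also had a wider peak at an end. Over all protein-coding genes, 2.85% had a short peak and 6.62% a wider one. Of 75 neural lineage factors, 15 had a short peak (20%, 11.65 to 30.83) and all 15 also had a wider one. Of 55 mesoderm and endoderm factors, 8 had one (14.5%, 6.495 to 26.66), again all with a wider peak. Of 39 Hox genes, 13 did (33.3%, 19.09 to 50.22), and 12 of these had both. With the Fox, Sox and T-box lists and the families of Irx2 and Six4 added, 47 of 256 genes had a short peak (18.4%, 13.81 to 23.66). Of the 47, 5 had short peaks only (10.6%, 3.546 to 23.1), against 68.9% (65.06 to 72.48) over all 623 genes. Wider peaks lay at 78.1% of these 256 genes, against 6.62% of all genes. So short peaks here had a wider one to stand beside far more often than at other genes.

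Single factors show the arrangement. Lhx1, a LIM homeobox factor of kidney and spinal neurons, had a short peak of 13 reads over its 3′ end, 611 bp from a peak of 12172 bp. The short peak of Isl2, a motor neuron factor, held 12 reads and lay 1787 bp from one of 10149 bp, and it also lay near an end of Scaper. Twist1, a mesenchymal basic helix-loop-helix factor, had 15 reads in a short peak 706 bp from a peak of 1743 bp. Pou4f3, a hair cell and sensory neuron factor, had 15 reads in one 519 bp from a peak of 2455 bp. Mixl1, a gastrulation homeobox factor, had the most reads among these lists, 16, beside a peak of 778 bp. In each case the short peak lay within 2 kb of the wider one.

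Among Hox genes, Hoxd4 had 2 short peaks of 10 and 14 reads and Hoxb9 had 1 of 12 reads. Hoxa4, with 13 reads, was the Hox gene with a short peak and no wider one at its ends, though its nearest neighbour, 4857 bp away, was 1251 bp wide. Foxa3, an endoderm forkhead factor, and Foxj1, the regulator of motile cilia, had short peaks only, with 12 and 10 reads. The Foxa3 peak covered the 5′ end and was shared with Sympk.

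The pooled lists of channels, transporters and transmitter receptors had a higher share of genes with a short peak than all protein-coding genes had. Of 593 genes in these 4 lists, 34 had one (5.73%, 4.003 to 7.92), against 2.85% of all genes, and 112 had a wider peak (18.9%). Of the 34, 26 had no wider one (76.5%, 58.83 to 89.25), an interval that includes the 68.9% over all 623 genes. Potassium channel genes numbered 12 of 92 (13%, 6.925 to 21.68). Kcna3 and Kcnab1, a channel and an auxiliary subunit, had 11 reads each and no wider peak. Sodium, calcium and pacemaker channel genes numbered 5 of 44. In that list, Scn9a and Cacna1e, a neuronal calcium channel, each had a peak of 12 reads that covered the 5′ end, and Scn2b one of 11 reads inside the gene.

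Transmitter receptors (4 of 93) and solute carriers (13 of 364) were close to the share over all genes. Adra1b, an adrenergic receptor, and Gabrd, a GABA receptor subunit, had 11 reads each, and Slc6a11, a GABA transporter, and Slc7a10, an amino acid transporter, had 13 reads each. Their intervals, 1.184 to 10.65% and 1.915 to 6.03%, include 2.85%. So these 2 lists show nothing beyond the background share.

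**Figure D4:**
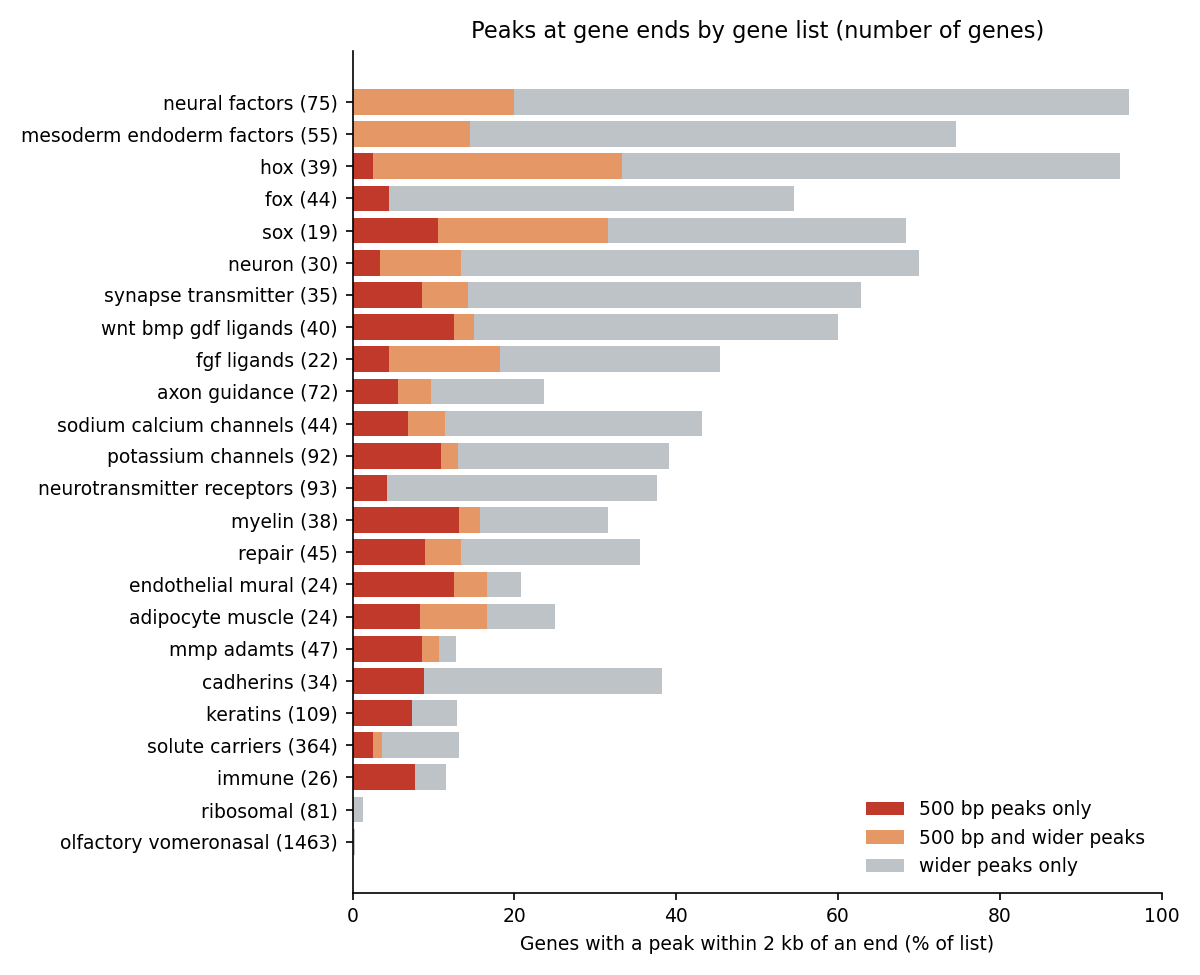
Percentage of genes of each list (x axis) with a peak within 2 kb of an end, split by whether the ends had 500 bp peaks only, both kinds or wider peaks only; the number of genes in the list is in brackets. Neural factors (20% with a short peak, 0% with short peaks only) contrast with keratins (7.34%, all with short peaks only).

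Secreted signals of development were mixed. Of 40 Wnt, Bmp and Gdf ligand genes, 6 had a short peak (15%, 5.71 to 29.84), against 2.85% of all genes. A wider peak lay at 19 of the 40 (47.5%), against 6.62% of all genes. Of the 6, 5 had no wider one (83.3%), beside 68.9% over all 623 genes. Gdf7, a dorsal spinal cord ligand, had 13 reads in a peak 510 bp from one of 1822 bp. Gdf10 had 2 short peaks of 11 and 10 reads either side of its 5′ end, and Gdf5, a joint morphogen, had 1 of 11 reads. Of 22 Fgf genes, 4 had a short peak (18.2%, 5.187 to 40.28) and 9 a wider one (40.9%). Among the 4, Fgf10, a ligand in limb and lung budding, had no wider one. Its 10 reads covered the 5′ end, 1110663 bp from the next peak.

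Axon guidance genes had short peaks in 7 of 72 (9.72%, 3.999 to 19.01), against 2.85% of all genes. A wider peak lay at 13 of the 72 (18.1%), against 6.62% of all genes. Epha8, an ephrin receptor gene, carried 3 short peaks around its 5′ end, of 10, 11 and 11 reads, and a wider one of 945 bp. Unc5c, a netrin receptor gene, had 13 reads upstream of its start with no other peak for 704763 bp. Sema6b, a semaphorin gene, had 14 reads at 1829 bp from its 5′ end. The 3 genes thus range from a group of short peaks to a single one far from any other.

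In the myelin list, 6 of 38 genes had a short peak (15.8%, 6.023 to 31.25), against 2.85% of all genes. Wider peaks lay at 7 of the 38 (18.4%), against 6.62% of all genes. Of the 6, 5 had no wider peak (83.3%), beside 68.9% over all 623 genes. Mbp, myelin basic protein, had 11 reads over an annotated end. The strand of Mbp was not known here, so that end cannot be called the promoter of its myelin transcripts. Nfasc, an adhesion protein of the node of Ranvier, had 11 reads over its 5′ end (chr1:132741401-132741900). Gal3st1, which sulphates galactosylceramide, had 12 reads near its 3′ end, and Ugt8a, which makes that lipid, had 10 reads 103 bp inside its 5′ end, 1684426 bp from the next peak. Cntn2, an axonal and juxtaparanodal adhesion protein, had 11 reads upstream of its start and a wider peak of 1213 bp with 24 reads. These values all lie in the Poisson interval of a peak of 10 reads.

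In the repair list, 6 of 45 genes had a short peak (13.3%, 5.054 to 26.79), against 2.85% of all genes. Wider peaks lay at 12 of the 45 (26.7%), against 6.62% of all genes. Of the 6, 4 had no wider one (66.7%), close to the 68.9% over all 623 genes. Igfbp2 had the most reads, 14, in a peak (chr1:72825053-72825552) 573 bp inside its 5′ end. Cdkn2b, a cell cycle inhibitor, had 2 short peaks of 12 and 11 reads, 1 at each end. Vegfa, the angiogenic factor, had 11 reads and Ngfr, the p75 neurotrophin receptor of repair Schwann cells, 10 reads, both inside the 5′ end. Shh and Sox2 had short peaks of 10 reads each beside wider ones, with 206 reads in 2 wider peaks at Shh, a morphogen, and 39 in 2 at Sox2, a factor of immature Schwann cells. At Shh the short peak was therefore a small part of the reads. Among 20 Schwann cell identity genes, Dhh, a hedgehog ligand of Schwann cells, alone had a short peak, with 10 reads 6 bp inside its 5′ end. That is 5% of the list (0.1265 to 24.87), an interval that includes the 2.85% of all genes.

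Marker genes of other cell types of the nerve and its surroundings had short peaks in 12 of 99 (12.1%, 6.423 to 20.22), against 2.85% of all genes. Wider peaks lay at 11 of the 99 (11.1%), against 6.62% of all genes. Of the 12, 8 had no wider peak (66.7%), beside 68.9% over all 623 genes. Among endothelial and mural genes (4 of 24), Cldn5, a tight junction protein, had 12 reads, Vwf, von Willebrand factor, 11 at a place shared with Ano2, Cnn1 11 over its 5′ end, and Prox1, a lymphatic factor, 13 beside a wider peak. Among adipocyte and muscle genes (4 of 24), Lep had 12 reads over its start and Pparg, the adipogenic receptor, 12 upstream of a start. Myod1 and the skeletal actin gene Acta1 had 10 reads each beside wider peaks. Fibroblast and perineurial genes (2 of 26) were Wif1, a Wnt inhibitor, with 10 reads and Osr2, with 11 beside wider peaks. Immune genes (2 of 26) were Kit, the mast cell receptor, with 11 reads and the T cell gene Cd3e with 10.

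Each of these 4 lists is small, and for the fibroblast and immune lists the interval (0.9455 to 25.13%) includes the 2.85% of all genes. Of 30 neuron genes, 4 had a short peak (13.3%, 3.755 to 30.72), against 2.85% of all genes. Far more of the 30, 20 genes (66.7%), had a wider one, against 6.62% of all genes. Snap25, a synaptic vesicle fusion protein, had 12 reads and no wider peak. Rbfox3, a splicing factor of neurons, and Slc17a6 had 10 reads each, and both had a wider peak at an end.

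**Figure D5:**
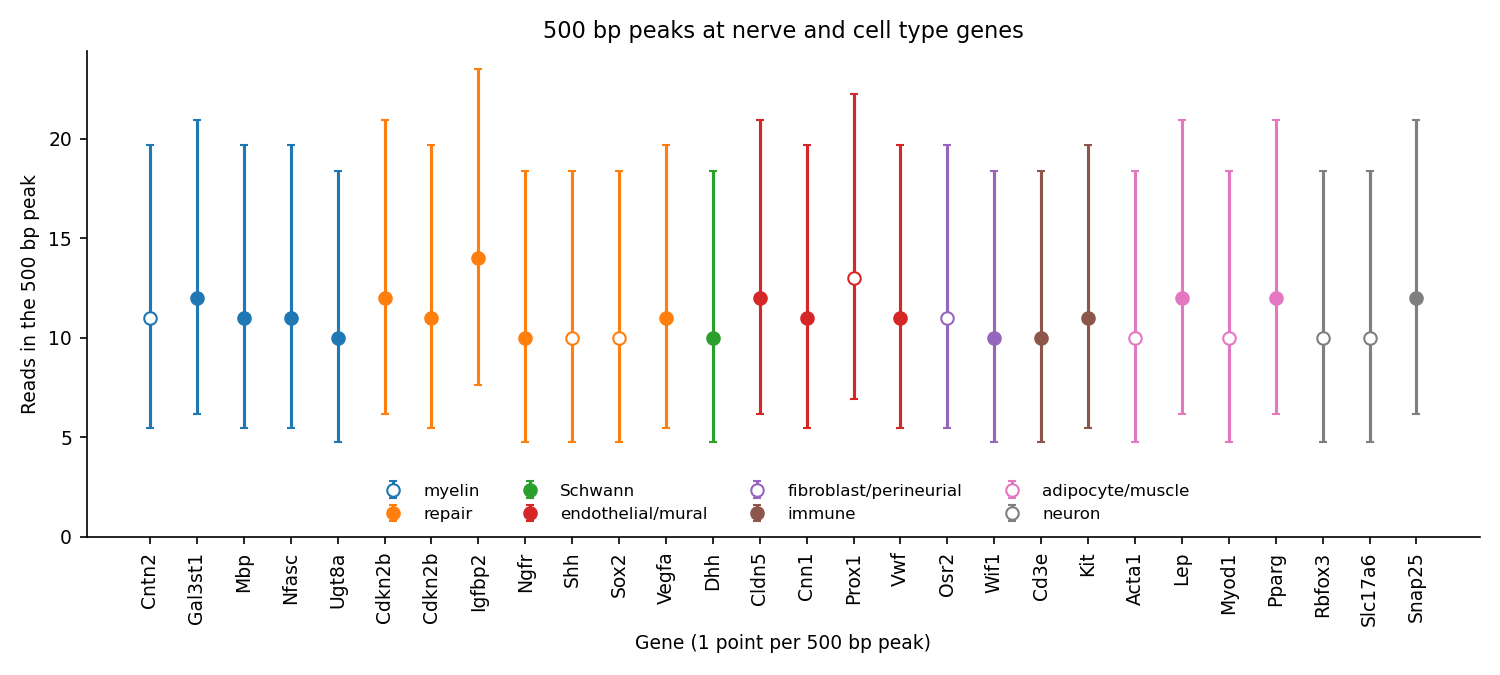
Reads (y axis) of 500 bp peaks at the ends of named genes of the myelin, repair, Schwann, other cell type and neuron lists (x axis), with exact 95% Poisson intervals; filled points mark genes with no wider peak at their ends, open points genes with one. All values drawn lie between 10 and 14 reads and their intervals overlap.

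Genes of the extracellular matrix, adhesion and epithelia also carried short peaks. Of 156 collagen, integrin, laminin, metalloproteinase and cadherin genes, 11 had a short peak (7.05%, 3.572 to 12.27), against 2.85% of all genes, and 15 had a wider one (9.62%). Of the 11, 10 had no wider peak (90.9%, 58.72 to 99.77), an interval that includes the 68.9% over all 623 genes. Col2a1, the cartilage collagen, had 11 reads over an annotated end. Cdh1, E-cadherin, had 10 over an end, and Pcdh1, a protocadherin, had 15 reads 256 bp outside one. Of 109 keratin and keratin-associated genes, 8 had a short peak (7.34%, 3.222 to 13.95), none of these 8 with a wider one, and 6 others had a wider peak. Krt19, a simple epithelial keratin, had 11 reads, and Krt12 and Krt24 had 10 each.

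Few ribosomal, respiratory chain, proteasome and lipid synthesis genes had a short peak, beside 2.85% of all genes. Among these 230 genes there was 1 (0.435%, 0.01101 to 2.399), Cox4i2, a subunit isoform of cytochrome oxidase, with 10 reads over an annotated end. Of 1463 olfactory and vomeronasal receptor genes, 1 had one, Olfr1366 (0.0684%, up to 0.3802). Of 397 Zfp genes, 3 did. None of 57 clustered protocadherin genes did, which allows a share of up to 5.26%, and none of 70 chemokine and interleukin genes, which allows up to 4.29%. Both limits lie above 2.85%, so these 2 lists show no difference from the background share.

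The peaks with the most reads lay away from the lists' genes in part. The highest held 24 reads and lay 1992 bp upstream of Fcgr3 (chr1:171067907-171068406), 1135 bp from a peak of 760 bp. The next held 22 reads, near Elobl, and 18 reads, at Gm8909 and Gm10499. A peak of 16 reads lay at the claudin genes Cldn6 and Cldn9, whose products form epithelial tight junctions. Samd11 had 15 reads, and so did Cyp26b1, which encodes an enzyme that degrades retinoic acid and carried 3 short peaks of 10, 15 and 11 reads. Each of the 10 short peaks with the most reads had another peak close by, at distances of 519 to 2859 bp.

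Over chromosomes, the share of protein-coding genes with a short peak was 2.98% on the autosomes (616 of 20665, 2.753 to 3.222) and 0.725% on the X (7 of 966, 0.2918 to 1.487). Males carry a single X, and whether this bears on the share was not tested. The lowest autosome was chromosome 16 (1.03%, 0.4155 to 2.113) and the highest chromosome 11 (4.35%, 3.407 to 5.465). The X held 13 peaks of 500 bp in all, 7 of them at gene ends. Long non-coding RNA genes were overlapped by 14.2% of the short peaks at protein-coding gene ends (11.52 to 17.16) and by 16.9% (15.21 to 18.65) of 500 bp peaks elsewhere, intervals that overlap.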

How the data were processed

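H3K27me3 ChIP-seq of sciatic nerve from 1 ChIP library was analysed from the peak list that the authors deposited. Per the submitters' processing notes, Bowtie and the build mm10 were used. For peak calling, the program, threshold and use of the input were not stated in the labels or the file header. Per peak, the authors deposited a score whose meaning is not stated. Of 6018 scores, 6017 lay within 0.05 reads of a whole multiple of 2.5734, so scores were divided by this step and read as reads. The total depth is unknown, and reads may not be independent molecules.

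Genes were the 21887 protein-coding genes of a RefSeq table (GRCm38.p6). Strand and promoters (300 bases) came from a RefSeq promoter table, which matched 17492 of them (79.9%). Positions are 1-based. Shares carry exact Clopper-Pearson 95% intervals and reads exact Poisson intervals. For a share of 0, the limit is 3 counts of the total. The rule and distances were tested on simulated data. Named genes are all genes with a short peak in the nerve and cell type lists, the 3 with the most reads in each of the other lists, the 10 top peaks, genes with 3 or more short peaks and the peaks nearest the 2 kb limit. The peaks and the 41 lists were chosen with earlier results of these data known. Not every gene that the rule takes is printed, and some are not reported here. Alternatives were windows of 1 and 5 kb, 250 bp of overlap, a wider width class, a score minimum, autosomes, genes without chemosensory receptors, other distances to neighbours and, added after seeing the data, at least 12 reads. Analyses used Python 3.11.15, pandas 2.3.3, NumPy 2.4.6 and SciPy 1.17.1.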

Additional observations from a re-analysis of the deposited data

How the results depend on the processing

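With peaks of at least 12 reads, a setting chosen after seeing the data, 134 peaks at 145 genes were left, 107 of these genes had short peaks only, 33.25% of 500 bp peaks lay at gene ends and 66.67% at a 5′ end alone. The myelin list then had 1 gene, the repair list 2, neural factors 3, Hox genes 3, potassium channels 1 and keratins 0, so most of these list counts rest on peaks of 10 and 11 reads. With a window of 1 kb the share of 500 bp peaks at gene ends was 16.73% and the share at a 5′ end alone 76.85%. With 5 kb there were 974 peaks at 996 genes, a share of 38.88%. With 250 bp of the peak inside the window the share was 22.83%. The share with no other peak was 65.06% within 2 kb and 47.02% within 20 kb, and its order against 500 bp peaks elsewhere (72.4% and 39.7%) turned between these distances. Counts of neural factors were 7 at 1 kb and 23 at 5 kb, of Hox genes 20 and of potassium channels 20 at 5 kb. The other values moved by less than 1.5 times (counts) or stayed inside their interval or spread. A width of up to 600 bp and the median score as a minimum left the same peaks. No paired analysis was possible because there is 1 ChIP library.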

Other observations

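Small families chosen after their values were seen had short peaks at all or nearly all members. Over all protein-coding genes the share was 2.85%. Since the peaks chose these families, their counts are descriptions and show nothing about the families. All 3 ryanodine receptor genes, which encode calcium release channels of muscle and neurons, had a short peak and no wider one at their ends, with 10 reads at Ryr1, 10 at Ryr2 and 13 at Ryr3. Of the 4 histamine receptor genes, Hrh1, Hrh2 and Hrh3 had one, with 10, 12 and 13 reads, and Hrh4 had none. Hrh2 had no wider peak, while Hrh1 had 1 and Hrh3 had 3.

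The 3 Cyp26 genes, whose products degrade retinoic acid, and the 3 SoxF genes, which act in endothelium, also had short peaks at every member. At the Cyp26 genes each also had 2 wider peaks at its ends, with 144 reads in them at Cyp26a1, 55 at Cyp26b1 and 163 at Cyp26c1. Sox17 and Sox7 had wider peaks with 150 and 67 reads, while Sox18 had its short peak of 10 reads alone. These families were picked because of their peaks, so no test was made.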
